A study of Mus musculus with 10 samples.

Results

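The regions described here are the stretches of mouse autosomes where open chromatin was called in every one of 8 ATAC-seq libraries of sorted testicular cells. Peaks of all 8 deposited lists that overlapped on chromosomes 1 to 19 were joined into 202046 regions. A region was kept when a peak of each of the 8 lists overlapped it by at least 1 bp, which left 17717 regions, 8.77% of all. The regions were chosen by the presence of a called peak in every list, so their number and their presence are not findings. They are called shared regions below.

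ATAC-seq maps accessible DNA with a transposase that inserts where DNA is not wrapped tightly in nucleosomes, and each library here came from 50000 sorted cells. The knockout genotype, called cKO, was Smarca5 fl/delta; Ddx4-Cre+, in which 1 allele is already deleted and a Cre driven by the germ-cell gene Ddx4 acts on the floxed one. Wild type (WT) animals were C57BL6; the labels give no strain for cKO and no ages. Both genotypes were profiled in cells with a 4C DNA content after Hoechst staining (4C-sorted; the submitters call them pachytene or pachytene-like) and in cells sorted for the surface receptor cKIT (cKIT+ spermatogonia in the design text), with 2 libraries for each of the 4 groups. A 4C content is shared by any replicated diploid cell, and the labels of the cKIT+ libraries mention both sorts, so the library line was used to place them. The 2 sorts also carry separate runs of sample numbers, so any batch that follows those runs cannot be told apart from the sort. Nothing states that replicates came from separate animals, and the p-values below then measure only the spread between these samples, which may be technical. Whole-testis single-cell RNA from 2 cKO samples, with an input of 15000 cells each, gave the RNA levels.

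Most promoters of genes that every cell needs lie in CpG islands, carry few nucleosomes and stay accessible across cell types, whereas enhancers and tissue-specific promoters open and close with the cell's state. SMARCA5 (SNF2H) is a motor subunit in ISWI chromatin remodelers, which slide and space nucleosomes around transcription start sites and around binding sites of factors such as CTCF. In the testis, spermatogonia divide, enter meiosis as spermatocytes and pass through pachytene, when homologous chromosomes are synapsed and many genes of later sperm formation are already transcribed.

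Promoters inside 7 shared regions are shown because the results below return to these genes: the targeted gene, strongly open housekeeping and meiotic promoters, and promoters with more or less accessibility in 4C-sorted cells. Each runs from 250 bases before to 50 bases after the RefSeq start, 300 bases in all, 5′ to 3′ on the gene's own strand, from the RefSeq promoter table for GRCm38.p6, the assembly also called mm10. The positions are chr8:80739410-80739709 on the minus strand for Smarca5, chr9:120127516-120127815 on the plus strand for Rpsa (a protein of the small ribosomal subunit), and chr11:107479278-107479577 on the plus strand for Psmd12 (a subunit of the 26S proteasome). Prdm9, whose product marks sites of meiotic recombination, lies at chr17:15564305-15564604 on the minus strand, and Atp5b, the ATP synthase beta subunit, at chr10:128083057-128083356 on the plus strand. Spaca1, an acrosomal membrane protein of sperm, lies at chr4:34050016-34050315 on the minus strand, and Serp2, of a family of stress-associated endoplasmic reticulum proteins, at chr14:76556638-76556937 on the minus strand. Capitals mark the letters of a GC box, a CCAAT box, an ETS motif or an NRF1 motif on either strand.
Smarca5: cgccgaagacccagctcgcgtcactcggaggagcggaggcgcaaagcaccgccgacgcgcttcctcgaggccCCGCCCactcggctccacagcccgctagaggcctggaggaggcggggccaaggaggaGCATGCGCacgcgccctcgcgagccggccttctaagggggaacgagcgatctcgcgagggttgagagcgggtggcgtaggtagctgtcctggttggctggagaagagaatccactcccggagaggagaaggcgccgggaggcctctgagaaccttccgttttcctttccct
Rpsa: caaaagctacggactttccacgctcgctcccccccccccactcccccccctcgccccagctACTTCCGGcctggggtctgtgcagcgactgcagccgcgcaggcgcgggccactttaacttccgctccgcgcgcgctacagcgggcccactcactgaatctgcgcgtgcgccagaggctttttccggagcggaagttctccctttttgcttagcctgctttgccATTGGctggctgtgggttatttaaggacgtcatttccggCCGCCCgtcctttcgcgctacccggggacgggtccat
Psmd12: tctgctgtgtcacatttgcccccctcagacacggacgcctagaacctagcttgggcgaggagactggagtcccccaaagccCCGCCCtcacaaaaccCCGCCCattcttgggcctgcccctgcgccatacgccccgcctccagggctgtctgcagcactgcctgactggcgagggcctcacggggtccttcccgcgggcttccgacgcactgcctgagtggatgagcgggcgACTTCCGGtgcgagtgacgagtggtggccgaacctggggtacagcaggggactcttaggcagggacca
Prdm9: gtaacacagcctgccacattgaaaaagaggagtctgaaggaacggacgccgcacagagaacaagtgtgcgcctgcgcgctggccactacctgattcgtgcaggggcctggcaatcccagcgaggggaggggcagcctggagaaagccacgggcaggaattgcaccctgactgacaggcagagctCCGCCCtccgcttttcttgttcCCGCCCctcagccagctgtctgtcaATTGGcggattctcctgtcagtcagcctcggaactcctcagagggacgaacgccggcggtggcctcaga
Atp5b: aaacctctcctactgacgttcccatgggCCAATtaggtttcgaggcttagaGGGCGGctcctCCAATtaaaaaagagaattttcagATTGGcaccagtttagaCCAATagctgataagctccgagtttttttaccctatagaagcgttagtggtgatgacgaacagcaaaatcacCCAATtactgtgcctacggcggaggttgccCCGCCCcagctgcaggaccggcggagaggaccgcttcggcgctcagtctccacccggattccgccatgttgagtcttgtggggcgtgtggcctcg
Spaca1: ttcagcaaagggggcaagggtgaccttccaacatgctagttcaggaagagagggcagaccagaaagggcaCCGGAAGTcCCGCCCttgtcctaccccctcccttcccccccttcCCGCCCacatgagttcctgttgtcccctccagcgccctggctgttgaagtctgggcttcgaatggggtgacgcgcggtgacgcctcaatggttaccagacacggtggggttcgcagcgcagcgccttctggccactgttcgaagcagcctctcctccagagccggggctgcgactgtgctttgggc
Serp2: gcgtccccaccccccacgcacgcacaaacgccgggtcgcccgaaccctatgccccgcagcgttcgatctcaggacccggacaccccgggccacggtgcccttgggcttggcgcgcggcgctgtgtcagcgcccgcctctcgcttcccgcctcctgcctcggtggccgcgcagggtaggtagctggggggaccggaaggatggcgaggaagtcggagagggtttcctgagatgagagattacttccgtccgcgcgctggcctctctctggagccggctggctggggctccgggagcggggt
The Smarca5 promoter holds 1 GC box and 1 NRF1 match, and the Rpsa promoter 1 GC box, 1 CCAAT box and 1 ETS match. The Atp5b promoter holds 2 GC boxes and 5 CCAAT boxes, and the Serp2 promoter none of the motifs searched, which says only that these letters are not in this window.

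The lists behind the regions differ in length. Autosomal peaks numbered 51920 and 55233 in 4C-sorted cKO, 47736 and 49488 in 4C-sorted WT, 124415 and 119128 in cKIT+ cKO, and 43672 and 110176 in cKIT+ WT libraries. The percent of these peaks that lay in a shared region was 35.3 and 33.0 in 4C-sorted cKO, 38.1 and 36.7 in 4C-sorted WT, 15.0 and 17.0 in cKIT+ cKO, and 44.8 and 16.6 in cKIT+ WT libraries. The shortest list, cKIT+ WT replicate 1, limited the set most: of the 5769 regions present in 7 lists, 3339 (57.9%) lacked a peak in that library, against 923 (16%) in 4C-sorted WT replicate 1 and 56 to 494 in each of the other 6 libraries. No read counts accompany the lists, so library depth is unknown, and how far list length follows depth was not tested. In the sorted bulk cells a lower fold can come from fewer cells with an open site or from less accessibility per cell, and these cannot be told apart.

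Shared regions were wide. Their median width was 1060 bp (quartiles 804 and 1367 bp, range 135 to 5767 bp), against 257 bp for the other merged regions, and together they covered 19.8 Mb against 65.6 Mb for the others. Merging over more lists widens a region by itself, so width is given as a description. Regions of 7 lists had a median of 791 bp and regions of 1 list 142 bp. Within the set, 998 shared regions (5.63%) were at most 500 bp, 6855 (38.7%) over 500 and up to 1000 bp, 9123 (51.5%) over 1000 and up to 2000 bp and 741 (4.18%) over 2000 bp. The share at a gene start followed width, with 11.6%, 53.6%, 76.4% and 81.8% in these 4 classes.

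Gene starts made up most of the set. A start here is the RefSeq start of a coding or lncRNA gene whose strand is known, or either annotated end of a gene whose strand is not given, and a region was placed at it within 500 bp. Of the 17717 shared regions, 11364 (64.1%) lay at a start, 3551 (20.0%) inside a gene and 2802 (15.8%) outside genes. Among regions of 1 to 7 lists 9923 of 184329 (5.38%) lay at a start, and the share was 23.9% for 7 lists and 2.97% for 1 list. Shared regions at starts were wider, with a median of 1151 bp against 874 bp inside genes and 815.5 bp outside them. The 6353 shared regions away from starts lay a median of 11446 bp from the nearest one (quartiles 4673 and 26019 bp), against 16798.5 bp for other regions away from starts.

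Seen from the genes, 11551 of 20665 autosomal coding genes (55.9%) had a shared region at the start, 4186 (20.3%) had only a region of 1 to 7 lists and 4928 (23.8%) had none. Among 12408 lncRNA genes, 2024 (16.3%) had a shared region. The start, not the other end, carried it: among 16457 coding genes with a known strand, 9389 (57.1%) had a shared region at the start, 695 (4.22%) at the far end and 208 (1.26%) at the far end alone. Of 9392 shared regions with a start of known strand, 1680 (17.9%) had starts on both strands. For the 6206 shared regions with exactly 1 such coding start, the region's centre lay a median of 90.75 bp into the gene (quartiles -33.5 and 228 bp), and 30.6% of centres lay upstream of the start.

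**Figure D1:**
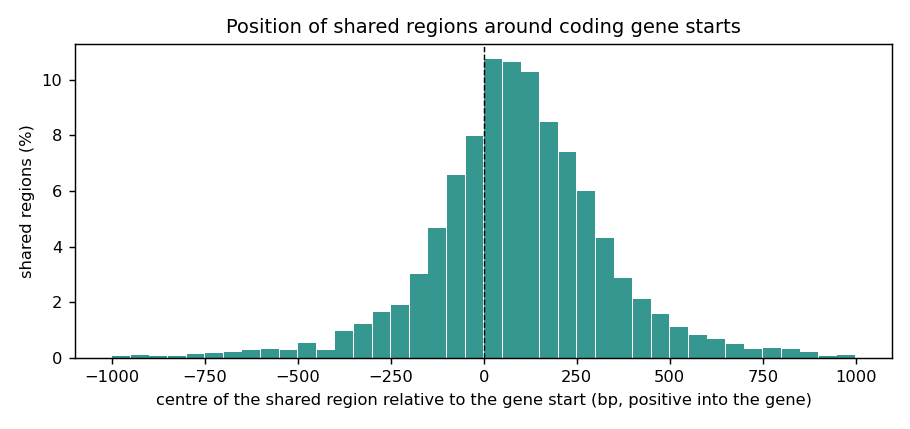
Position of the centre of 6206 shared regions relative to the single coding start of known strand at each of them, in bp along the gene's direction, as the percent of regions in each bin. The centres gather just downstream of the start, with a median of 90.75 bp and 30.6% upstream.

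At 7096 shared regions there was no coding start, at 9471 there was 1, at 1129 there were 2 and at 20 there were 3. At 1 region 24 coding genes were matched by an annotated end. It was chr18:37842070-37843019 in the protocadherin gamma cluster, whose genes encode neuronal adhesion proteins and share their last exons. The annotation used gives no strand on chromosome 18, so either annotated end was matched, and the 24 matches are not shown to be starts. The fold of this region was 3.49 and 3.34 in 4C-sorted cKO, 3.31 and 3.84 in 4C-sorted WT, 4.17 and 4.1 in cKIT+ cKO, and 3.22 and 3.90 in cKIT+ WT libraries. That is below each library's median. The 4C-sorted genotypes overlapped, and both cKIT+ cKO folds as deposited lay above the other 6. Those 2 libraries also had the highest medians over shared regions. After division by the library median, the cKIT+ cKO values were 0.604 and 0.583, below the 0.699 and 0.663 of cKIT+ WT. The region was not counted between genotypes. Regions with 3 coding starts included chr12:87443003-87444249, at Alkbh1 (a DNA and RNA demethylase), Nrp and Slirp (a mitochondrial RNA-binding protein). Its fold was 7.36 and 7.06 in 4C-sorted cKO, 8.19 and 8.18 in 4C-sorted WT, 9.26 and 8.38 in cKIT+ cKO, and 5.49 and 7.33 in cKIT+ WT libraries. Per chromosome, shared regions numbered 484 on chromosome 18 to 1461 on chromosome 11, or 65.5 per 100 coding genes on chromosome 7 to 102.6 on chromosome 5.

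The widest shared region was chr17:39843028-39848794 at 5767 bp, with a fold of 1.91 and 1.89 in 4C-sorted cKO, 1.89 and 1.90 in 4C-sorted WT, 1.80 and 1.80 in cKIT+ cKO, and 1.80 and 1.80 in cKIT+ WT libraries. All 8 values lay close together and far below the medians of their libraries. The nearest coding start was Esp38, at 101726 bp. The next, chr1:24611586-24616141, was 4556 bp wide and 24149 bp from Col19a1, a collagen gene, with folds of 2.28 to 2.57. The widest at a coding start was 4445 bp at Ssbp4, chr8:70607677-70612121, with a fold of 3.08 and 2.88 in 4C-sorted cKO, 5.13 and 4.31 in 4C-sorted WT, 4.25 and 4.72 in cKIT+ cKO, and 3.13 and 4.61 in cKIT+ WT libraries. There the 4C-sorted cKO libraries lay below the 4C-sorted WT ones, and the cKIT+ libraries of both genotypes overlapped.

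Fold, the authors' own value for each peak, is the enrichment over local background in the same library, and the highest fold of a peak in the region was taken. The median fold over shared regions was 5.27 and 5.36 in 4C-sorted cKO, 5.64 and 5.64 in 4C-sorted WT, 6.91 and 7.02 in cKIT+ cKO, and 4.61 and 5.89 in cKIT+ WT libraries. By group it was 5.32 ± 0.0644 in 4C-sorted cKO, 5.64 ± 0.00226 in 4C-sorted WT, 6.96 ± 0.0829 in cKIT+ cKO and 5.25 ± 0.902 in cKIT+ WT libraries (SD, n = 2 each). The cKIT+ cKO libraries were the highest, and the cKIT+ WT pair was the most spread. Peaks elsewhere had lower median folds in every library, 3.47 and 3.45 in 4C-sorted cKO, 3.41 and 3.48 in 4C-sorted WT, 4.12 and 4.55 in cKIT+ cKO, and 3.6 and 4.00 in cKIT+ WT libraries, and regions of 8, 7 and 1 lists had median folds of 5.59, 4.22 and 3.25. A peak called in every list is likely to be strong by that choice, so this order is a description.

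**Figure D2:**
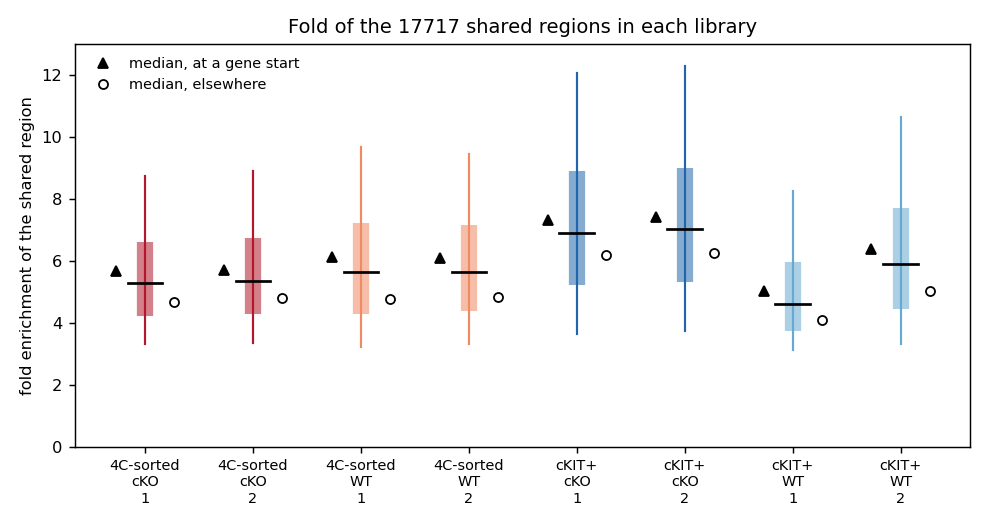
Fold enrichment over local background in the shared regions of each library: the line across is the median, the box spans the quartiles, the whisker the 5th to 95th percentile, and the triangle and circle are the medians of regions at a gene start and elsewhere. In all 8 libraries the triangle lies above the circle, and the cKIT+ cKO libraries lie highest.

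Regions at starts had the higher fold in all 8 libraries. Their median fold was 5.68 and 5.70 in 4C-sorted cKO, 6.14 and 6.09 in 4C-sorted WT, 7.31 and 7.41 in cKIT+ cKO, and 5.01 and 6.39 in cKIT+ WT libraries. Away from starts it was 4.66 and 4.79 in 4C-sorted cKO, 4.76 and 4.83 in 4C-sorted WT, 6.20 and 6.26 in cKIT+ cKO, and 4.1 and 5.01 in cKIT+ WT libraries. The log2 ratio of these medians within a library, which needs no scaling between libraries, was 0.29 and 0.25 in 4C-sorted cKO, 0.37 and 0.33 in 4C-sorted WT, 0.24 and 0.24 in cKIT+ cKO, and 0.29 and 0.35 in cKIT+ WT libraries. The group means were 0.27 ± 0.03 in 4C-sorted cKO, 0.35 ± 0.02 in 4C-sorted WT, 0.24 ± 0.00446 in cKIT+ cKO and 0.32 ± 0.04 in cKIT+ WT libraries (SD, n = 2 each). The ratio was lower in cKO than in WT, with a difference of -0.08 in 4C-sorted and of -0.08 in cKIT+ cells, and within each sort the genotypes did not overlap. With peaks of −log10 q of at least 5 alone the 4C-sorted difference turned to 0.00978, the cKIT+ one was -0.0462 and that over both sorts -0.0182 (exact permutation p = 0.389). Without cKIT+ WT replicate 2 the cKIT+ difference was -0.0301. Over both sorts the difference reached p = 0.0556 in an exact two-sided permutation test, the lower limit of its 36 arrangements, and within a sort p = 0.333, the smallest for 2 against 2, so none could pass 0.05. The 4C-sorted minus cKIT+ difference was 0.03 (exact p = 0.457), and the genotype difference did not differ detectably between sorts (exact p = 0.944).

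The median length covered by peaks was 705 and 741 in 4C-sorted cKO, 693 and 717 in 4C-sorted WT, 796 and 737 in cKIT+ cKO, and 519 and 755 in cKIT+ WT libraries, in bp per shared region. cKIT+ WT replicate 1 was the lowest, and the genotypes overlapped in both sorts. The cKO minus WT difference was 18 bp in 4C-sorted cells (exact permutation p = 0.667), 129.5 bp in cKIT+ cells (p = 0.667) and 73.75 bp over both (p = 0.278). Without cKIT+ WT replicate 1 the cKIT+ difference was 16 bp and that over both sorts 17 bp, and without cKIT+ WT replicate 2 they were 245 and 131 bp. Between sorts it was 12.25 bp (exact permutation p = 0.971).

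The strongest signals were narrow and away from promoters. Each fold was divided by the median over shared regions of the same library, and the median of these 8 scaled folds ranged from 0.312 to 7.24 (quartiles 0.807 and 1.24). Of the 58 regions at 3 or more, 0 lay at a gene start, 20 lay inside a gene (median width 300 bp) and 38 outside genes (350.5 bp). The highest was chr6:103649043-103649309, 267 bp wide and 138167 bp from the start of Chl1, a neural adhesion gene, with a fold of 42.5 and 42.1 in 4C-sorted cKO, 41.2 and 40.4 in 4C-sorted WT, 37.0 and 36.7 in cKIT+ cKO, and 33.7 and 36.2 in cKIT+ WT libraries. The next was chr12:3109851-3110113, 263 bp wide and 199856 bp from Rab10, a membrane-trafficking GTPase, with a fold of 38.7 and 37.7 in 4C-sorted cKO, 38.5 and 38.2 in 4C-sorted WT, 37.9 and 38.0 in cKIT+ cKO, and 33.6 and 38.1 in cKIT+ WT libraries. All 8 libraries were high at both regions, and the groups lay close together. Over all 17717 shared regions, width and scaled fold had a Spearman's rho of -0.21, and how far fold depends on peak width was not tested. The 10 highest regions were 186 to 354 bp wide. The files carry no repeat or mappability annotation, so the part of repeated sequence in such regions was not tested. In 4 equal groups of the set from low to high scaled fold, the share at gene starts was 48.9%, 56.7%, 69.7% and 81.3%, so strong signal in general went with starts and only this small tail did not.

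Regions at the edge of the rule were weak but not absent. The lowest −log10 q of a peak counted here was 1.0042, at chr2:179249762-179251379, whose fold was 2.78 and 2.93 in 4C-sorted cKO, 2.89 and 2.67 in 4C-sorted WT, 4.56 and 3.68 in cKIT+ cKO, and 3.52 and 3.44 in cKIT+ WT libraries; the next were 1.01163 at chr19:56775531-56776272 and 1.01703 at chr10:78134606-78135620. Just outside, the regions of 7 lists with the highest median fold were chr8:129299676-129301255 (16.2), chr2:22744455-22745160 (12.7) and chr6:69516349-69516579 (12.2), all without a peak in 4C-sorted WT replicate 2.

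The order of folds over shared regions was alike within a sort and less alike between sorts. Spearman's rho over the 17717 regions was 0.894 between the 4C-sorted cKO libraries, 0.909 between the 4C-sorted WT, 0.932 between the cKIT+ cKO and 0.760 between the cKIT+ WT libraries. It was 0.839 to 0.872 between cKO and WT of the 4C sort, 0.753 to 0.891 between cKO and WT of the cKIT+ sort, and 0.474 to 0.616 between sorts. Regions share their library, mappability and base composition, and these values are descriptions.

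A shared region was counted as higher or lower in 4C-sorted than in cKIT+ cells when the scaled folds of the 4 libraries of each sort did not overlap and the ratio of their geometric means was at least 1.5. By this rule 1111 shared regions (6.27%) were higher and 1142 (6.45%) lower in 4C-sorted cells; only shared regions can be counted, so these are also the background shares. Most differed less, and 86.0% of the ratios lay within 1.5-fold in either direction. At gene starts 560 (4.93%) were higher and 503 (4.43%) lower, inside genes 330 (9.29%) and 362 (10.2%), and outside genes 221 (7.89%) and 277 (9.89%). Of the regions of at most 500 bp 23.4% were counted, against 9.04% of those over 2000 bp. Without cKIT+ WT replicate 1 the counts were 1897 higher and 1703 lower. With folds as deposited and no scaling they were 630 and 1458, with a median log2 ratio of -0.14 in place of 0.00.

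The largest ratio was at chr6:147236635-147236965, outside genes and 27048 bp from Pthlh, which encodes a parathyroid hormone-like peptide. Its fold was 20.9 and 22.3 in 4C-sorted cKO, 17.2 and 22.4 in 4C-sorted WT, 4.76 and 4.82 in cKIT+ cKO, and 7.80 and 7.77 in cKIT+ WT libraries. Every 4C-sorted library lay far above every cKIT+ library, with a log2 ratio of 1.89. The 4 next were 4970 bp from Cmas (1.70), at the lncRNA start C330020E22Rik (1.68), 16864 bp from Oas1d (1.67) and 326323 bp from Ccnh (1.58). The lowest was chr11:76377948-76378333, inside a gene and 20808 bp from the start of Nxn, a thioredoxin-family gene. There the fold was 3.62 and 3.99 in 4C-sorted cKO, 4.79 and 4.31 in 4C-sorted WT, 16.3 and 17.9 in cKIT+ cKO, and 11.5 and 14.0 in cKIT+ WT libraries, with a log2 ratio of -1.69 and no overlap between sorts. Regions 25711 bp from Sirpa (-1.63), 21393 bp from Ythdf2 (-1.59), 28563 bp from Psmg3 (-1.59) and 2972 bp from 4932438H23Rik (-1.58) followed.

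At coding starts, 479 of 11551 genes (4.15%) were higher and 482 (4.17%) lower in 4C-sorted cells. Pak6, a p21-activated kinase gene, led those that were higher (chr2:118676964-118677808), with a fold of 7.35 and 7.56 in 4C-sorted cKO, 8.84 and 9.42 in 4C-sorted WT, 3.07 and 2.87 in cKIT+ cKO, and 3.42 and 2.85 in cKIT+ WT libraries and a log2 ratio of 1.58. Serp2, whose promoter is printed above, had a fold of 8.87 and 9.15 in 4C-sorted cKO, 11.6 and 11.2 in 4C-sorted WT, 3.85 and 3.96 in cKIT+ cKO, and 3.18 and 4.09 in cKIT+ WT libraries, a log2 ratio of 1.57. At both starts every 4C-sorted library lay above every cKIT+ library. Among starts that were lower, Esrra, an orphan nuclear receptor that drives mitochondrial genes, had a fold of 4.62 and 4.97 in 4C-sorted cKO, 3.10 and 3.28 in 4C-sorted WT, 13.3 and 12.9 in cKIT+ cKO, and 9.91 and 9.38 in cKIT+ WT libraries (chr19:6920261-6922418; log2 ratio -1.39). Phkg2, the testis and liver catalytic subunit of phosphorylase kinase, had a fold of 4.55 and 4.78 in 4C-sorted cKO, 4.23 and 4.79 in 4C-sorted WT, 14.1 and 14.1 in cKIT+ cKO, and 10.4 and 13.4 in cKIT+ WT libraries (log2 ratio -1.36). The cKIT+ libraries were the higher ones at both, with no overlap.

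**Figure D3:**
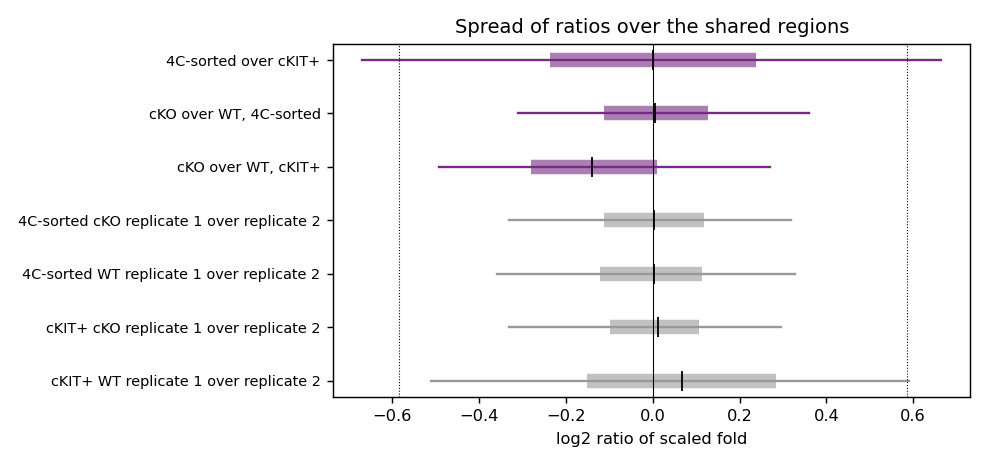
Spread over shared regions of the log2 ratio of scaled folds for 4C-sorted over cKIT+ cells, cKO over WT in each sort, and replicate 1 over replicate 2 of each group (tick, median; box, quartiles; line, 5th to 95th percentile; dotted lines, 1.5-fold). The sort comparison is the widest, from -0.67 to 0.67 at those percentiles, and cKO over WT in 4C-sorted cells, from -0.31 to 0.36, is about as wide as its replicate pairs. Group ratios compare means of libraries and replicate ratios single libraries, so their widths are not like for like.

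Between genotypes, few shared regions of 4C-sorted cells were counted. By the same rule with 2 against 2 libraries, over all 28032 autosomal regions with a peak in every 4C-sorted library, 281 (1.00%) were higher and 281 (1.00%) lower in cKO than in WT. Among shared regions 127 (0.717%) were higher and 74 (0.418%) lower, both below that background, and 98.9% of ratios lay within 1.5-fold. The 10315 regions of the same background that were not shared had 1.49% higher and 2.01% lower. Replicate pairs of 1 genotype gave similar shares, with 98.8% of ratios in 4C-sorted cKO and 98.5% in 4C-sorted WT within 1.5-fold. These pairs compare single libraries and the genotype ratio means of 2, so the likeness does not show that genotype adds nothing. Without scaling the counts were 64 higher and 159 lower. Leaving out a library makes the condition of no overlap easier to meet: the counts were 294 higher and 133 lower without 4C-sorted cKO replicate 1, 205 and 121 without 4C-sorted cKO replicate 2, 163 and 115 without 4C-sorted WT replicate 1, 267 and 236 without 4C-sorted WT replicate 2, and 169 and 113 without cKIT+ WT replicate 1, which changes the set of shared regions.

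In 4C-sorted cells the highest ratio was at the start of Lmcd1, which encodes a LIM-domain transcription regulator (chr6:112273463-112274055). Its fold was 8.44 and 6.97 in 4C-sorted cKO, 3.21 and 4.75 in 4C-sorted WT, 10.5 and 12.7 in cKIT+ cKO, and 3.79 and 9.62 in cKIT+ WT libraries. On deposited folds both cKO libraries lay above both WT libraries in each sort. The log2 ratio of scaled folds was 1.05 in 4C-sorted and 0.44 in cKIT+ cells, where the scaled folds overlapped and the region was not counted. Of 36 coding genes (0.312% of those with a shared start) with a higher start, Cyria (0.85; fold 5.93 and 5.77 in 4C-sorted cKO, 3.28 and 3.58 in 4C-sorted WT, 6.94 and 6.22 in cKIT+ cKO, and 4.04 and 5.74 in cKIT+ WT libraries) and Kyat3, a kynurenine aminotransferase (0.81), came next. Regions 44238 bp from Stmnd1 (1.02) and 5566 bp from Wnt8b, a Wnt ligand gene (0.88), were the other high ones. The lowest ratio was at chr11:121981523-121982557, 56195 bp from Gm9631. Its fold was 12.1 and 12.5 in 4C-sorted cKO, 29.2 and 27.9 in 4C-sorted WT, 14.8 and 15.1 in cKIT+ cKO, and 20.0 and 27.7 in cKIT+ WT libraries. The cKO libraries lay below the WT libraries in both sorts, with log2 ratios of -1.13 in 4C-sorted and -1.15 in cKIT+ cells. Among 21 coding genes (0.182%) with a lower start were Tln2, which encodes talin 2, a link from integrins to actin (-0.79), Mecom, a zinc-finger transcription factor gene (-0.74), and Gtf2a1l, the germ-cell TFIIA subunit (-0.73). The Gtf2a1l region had a fold of 4.47 and 4.93 in 4C-sorted cKO, 8.96 and 7.6 in 4C-sorted WT, 3.98 and 5.87 in cKIT+ cKO, and 3.99 and 3.93 in cKIT+ WT libraries; the 4C-sorted genotypes did not overlap and the cKIT+ ones did.

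In cKIT+ cells the genotype counts depended on the scaling and on which libraries were included. Over 29013 regions with a peak in every cKIT+ library, 438 (1.51%) were higher and 724 (2.50%) lower in cKO than in WT. Among shared regions 51 (0.288%) were higher, below that background, and 399 (2.25%) lower, close to it. The scaling used all those regions, and on it the median log2 ratio of shared regions was -0.14, which bears on this split; unscaled it was 0.36. Unscaled folds gave 2796 higher and 22 lower, scaling on shared regions alone 129 and 218, and quantile scaling 115 and 143. Without cKIT+ WT replicate 1 the counts were 422 higher and 159 lower, and without cKIT+ WT replicate 2 they were 403 and 1468. Without cKIT+ cKO replicate 1 they were 128 and 454, and without cKIT+ cKO replicate 2 they were 110 and 676. All 51 higher regions, but only 22 of the 399 lower ones, were counted under each of the 4 scalings, so no direction is given for shared regions as a whole. The median log2 ratio of -0.14 was the lowest of the 4, against 0.36 unscaled, -0.085 with quantile scaling and -0.06 on shared regions alone. That shift by itself keeps higher calls and loses lower ones, so the contrast does not show which calls are firmer.

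Among the highest ratios in cKIT+ cells were a region 2418 bp from Casq1, the muscle calsequestrin gene (0.97), and one 32901 bp from Mapre3, a microtubule-end-binding protein gene (0.88). The Casq1 region had a fold of 2.92 and 3.88 in 4C-sorted cKO, 3.45 and 4.31 in 4C-sorted WT, 11.3 and 12 in cKIT+ cKO, and 2.98 and 5.96 in cKIT+ WT libraries. At the Casq1 region both cKIT+ cKO libraries lay above all 6 others. The lowest was chr1:123303714-123303959, 741600 bp from Dpp10. Its fold was 5.80 and 4.30 in 4C-sorted cKO, 5.07 and 4.43 in 4C-sorted WT, 4.35 and 7.79 in cKIT+ cKO, and 17.8 and 15.0 in cKIT+ WT libraries. Here the cKIT+ WT libraries stood above all others, with a log2 ratio of -1.99. Regions 202945 bp from Gata6 (-1.92) and 96536 bp from Tiam1 (-1.89), the nearest coding starts, had the same shape. Whether such distant regions bear on those genes was not tested. Of coding genes with a shared start, 4 (0.0346%) were higher, Tmem106a, Nudt13 and Tcte1 among them, and 127 (1.10%) were lower, led by Epc2 (-0.98), a subunit of a histone acetyltransferase complex. The Epc2 fold was 4.65 and 4.27 in 4C-sorted cKO, 4.60 and 4.66 in 4C-sorted WT, 3.77 and 3.84 in cKIT+ cKO, and 6.06 and 4.66 in cKIT+ WT libraries. The WT folds as deposited lay above the cKO ones.

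Counted in both sorts, 3 of the 17717 shared regions were higher and 8 lower in cKO. Within 1 sort, 0.717% were higher and 0.418% lower in 4C-sorted cells, and 0.288% higher and 2.25% lower in cKIT+ cells. Whether the overlap exceeds that of unrelated calls was not tested. The 3 higher regions were 9675 bp from 4930563M21Rik, at the start of Tmem106a and 21337 bp from H4bc24, a histone H4 gene. Tmem106a, which encodes a transmembrane protein, had a fold of 5.22 and 6.03 in 4C-sorted cKO, 3.48 and 3.97 in 4C-sorted WT, 9.82 and 13.9 in cKIT+ cKO, and 4.39 and 6.39 in cKIT+ WT libraries, with log2 ratios of 0.67 in 4C-sorted and 0.65 in cKIT+ cells. Each sort had both cKO libraries above both WT libraries. Of the 8 lower, a region 33705 bp from the start of Adam18, a sperm-surface ADAM gene, had log2 ratios of -0.83 and -0.85, and a region 82982 bp from Rfc3 had -0.96 and -0.63, in 4C-sorted and cKIT+ cells on scaled folds. On deposited folds the cKIT+ genotypes overlapped at both: the fold near Adam18 was 5.93 and 3.52 in 4C-sorted cKO, 8.62 and 8.54 in 4C-sorted WT, 4.84 and 5.35 in cKIT+ cKO, and 7.93 and 5.32 in cKIT+ WT libraries, and near Rfc3 11.4 and 20.0 in 4C-sorted cKO, 32.9 and 29.4 in 4C-sorted WT, 26.0 and 26.3 in cKIT+ cKO, and 26.3 and 31.2 in cKIT+ WT libraries. Their cKIT+ calls therefore depend on the scaling, as did all but 22 of the 399 lower calls in those cells.

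Smarca5 itself had a shared region at its start (chr8:80739074-80740125). Its fold was 8.15 and 8.33 in 4C-sorted cKO, 8.25 and 8.17 in 4C-sorted WT, 9.91 and 8.75 in cKIT+ cKO, and 7.90 and 9.74 in cKIT+ WT libraries. The genotypes overlapped in both sorts on deposited fold, and the scaled log2 ratio of cKO to WT was 0.09 in 4C-sorted and -0.41 in cKIT+ cells. The region was not counted in either sort. The labels do not say which exons are deleted, so a promoter peak does not check the knockout. Smarca5 RNA stood at 55.4 and 37.6 CPM (UMI counts scaled to the same total in each sample) in the cKO single-cell samples, in whole testis, which holds cells without Cre.

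Gene lists differed in how many starts lay in a shared region, against 55.9% of all autosomal coding genes. It was every autosomal member of 3 lists: 26 of 26 transcription factors of housekeeping promoters, 30 of 30 genes of DNA repair and ATR/ATM signalling, and 35 of 35 core spliceosome genes. Ribosomal protein genes had 74 of 75, genes of the mitochondrial respiratory chain 36 of 37 and proteasome genes 34 of 36. Among chromatin genes it was 11 of 12 ISWI subunits (Baz1a had a region of 4 lists), 23 of 27 SWI/SNF subunits and 14 of 17 CTCF and cohesin genes. Germ-cell lists had 39 of 45 meiosis genes, 18 of 21 of the piRNA pathway, 16 of 22 spermatogonial and 25 of 47 spermatid genes. Lists of other cells were lower, with 6 of 15 Sertoli, 2 of 10 Leydig, 4 of 17 endothelial and peritubular and 1 of 26 immune and blood cell genes, and so were 8 of 47 genes of other organs and 13 of 39 Hox genes. These lists are described by their counts alone.

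**Figure D4:**
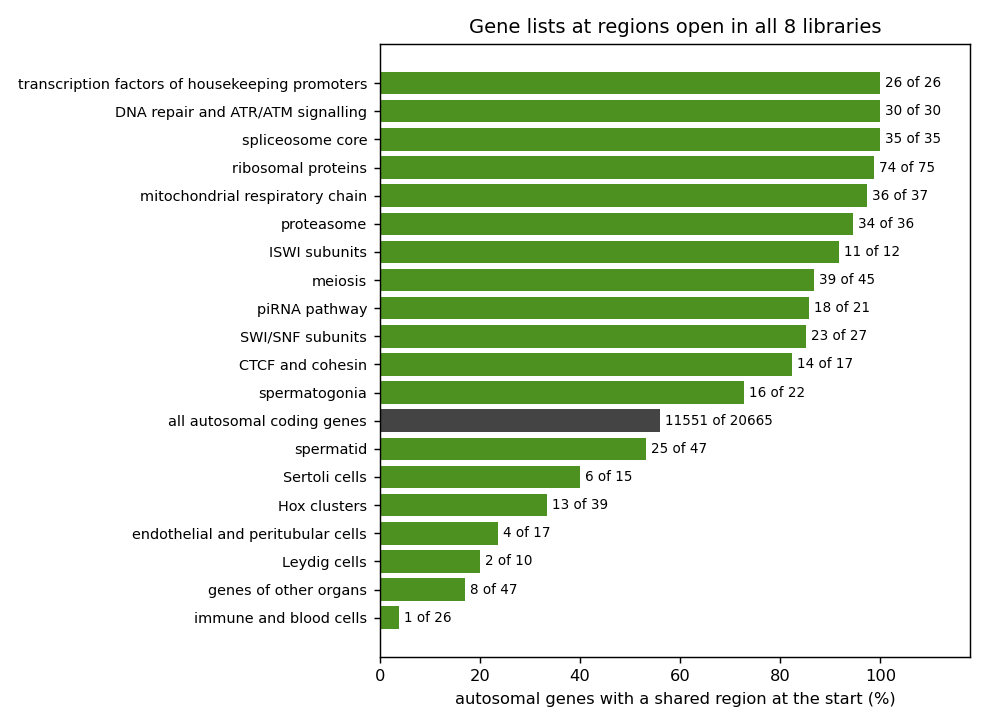
Percent of the autosomal genes of each list with a shared region at the start (bars, with the number of genes beside each), and the same for all autosomal coding genes (dark bar). Housekeeping lists reach 94.4% to 100%, spermatid genes 53.2%, close to the 55.9% of all coding genes, and immune and blood cell genes 3.85%.

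Housekeeping lists differed in how open their shared starts were. The median scaled fold was 1.28 for DNA repair genes, 1.27 for the respiratory chain, 1.25 for the spliceosome, 1.16 for the proteasome, 1.16 for ribosomal proteins and 1.06 for the transcription factors of housekeeping promoters, against 1.10 for all coding genes with a shared region. The meiosis list had 1.24, within the range of these lists. Snrpc, a U1 snRNP protein gene with the highest value of its list (2.06), had a fold of 9.44 and 7.53 in 4C-sorted cKO, 11.5 and 8.68 in 4C-sorted WT, 14.7 and 15.4 in cKIT+ cKO, and 9.60 and 13.7 in cKIT+ WT libraries. Psmd12, highest of the proteasome (1.96), had a fold of 11.6 and 10.4 in 4C-sorted cKO, 11.2 and 11.2 in 4C-sorted WT, 13.1 and 12.5 in cKIT+ cKO, and 10.1 and 11 in cKIT+ WT libraries. At both genes the genotypes overlapped in 4C-sorted cells, and both cKO folds as deposited lay above the WT ones in cKIT+ cells. Deposited folds are not scaled, and the median over all shared regions was also higher in cKIT+ cKO (6.91 and 7.02) than in cKIT+ WT libraries (4.61 and 5.89). Rpl27, highest of the ribosomal proteins (1.92), had a fold of 8.53 and 7.74 in 4C-sorted cKO, 8.01 and 8.12 in 4C-sorted WT, 16.2 and 15.6 in cKIT+ cKO, and 10.4 and 14.0 in cKIT+ WT libraries. Rpsa, whose promoter is printed above, had a scaled fold of 1.65 and a fold of 7.40 and 7.63 in 4C-sorted cKO, 10.1 and 8.43 in 4C-sorted WT, 13 and 11.1 in cKIT+ cKO, and 8.21 and 10.0 in cKIT+ WT libraries. On deposited folds its 4C-sorted cKO libraries lay below the WT ones and its cKIT+ cKO libraries above them, and it was counted in no comparison.

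A few housekeeping starts were counted as lower in 4C-sorted than in cKIT+ cells, chosen here after their values were seen. Of the 74 shared starts of ribosomal protein genes 4 were lower (Rpl27, Rps19 and Rps20 among them) and 0 higher, of the 34 of the proteasome 3 were lower (Psmb9, Psmc4 and Psmd8) and 1 higher, and of the 35 of the spliceosome 2 were lower (Prpf8 and U2af2). Over all 11551 coding genes with a shared start 4.17% were lower and 4.15% higher. Of the respiratory chain 1 was lower, Atp5b, with a fold of 5.89 and 6.03 in 4C-sorted cKO, 5.76 and 6.03 in 4C-sorted WT, 14.3 and 13.5 in cKIT+ cKO, and 8.44 and 12.7 in cKIT+ WT libraries. All cKIT+ libraries lay above all 4C-sorted ones, and the log2 ratio of scaled folds was -0.88. The 1 higher proteasome gene was Psma8, the alpha subunit of the spermatocyte proteasome, with a fold of 7.97 and 8.61 in 4C-sorted cKO, 6.80 and 8.19 in 4C-sorted WT, 5.37 and 4.65 in cKIT+ cKO, and 4.78 and 4.64 in cKIT+ WT libraries and a log2 ratio of 0.83. Yy1, a zinc-finger factor of housekeeping promoters, had a fold of 4.02 and 4.65 in 4C-sorted cKO, 4.01 and 3.34 in 4C-sorted WT, 8.97 and 10.5 in cKIT+ cKO, and 6.49 and 7.76 in cKIT+ WT libraries and a log2 ratio of -0.92.

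Among the 39 meiosis genes with a shared start, open in both sorts by the way the regions were chosen, Prdm9 had the highest scaled fold (1.82), at chr17:15564001-15564798, with a fold of 10.6 and 10.7 in 4C-sorted cKO, 11.4 and 11.1 in 4C-sorted WT, 11.1 and 10.9 in cKIT+ cKO, and 7.68 and 9.67 in cKIT+ WT libraries. Its 4C-sorted folds lay within 10.6 to 11.4, and cKIT+ WT replicate 1 was the lowest. Mnd1, a partner in meiotic strand exchange (1.74), and Hormad2 and Sycp2, of the chromosome axis (1.5 each), came next. Over the list, 1 gene was higher in 4C-sorted cells (Rnf212, a crossover factor; log2 ratio 0.83) and 2 were lower (Mei4, which acts in meiotic break formation, and Kash5, which ties telomeres to dynein), against 4.15% higher and 4.17% lower of all 11551 coding genes. Of the piRNA list, 1 of 18 was higher, Piwil1, the PIWI protein of pachytene piRNAs (0.60), and 0 were lower.

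Spermatid genes, which act after meiosis, had 4 of 25 shared starts higher in 4C-sorted cells and 0 lower, against 4.15% higher and 4.17% lower of all coding genes with a shared start. Spaca1 (chr4:34049741-34050328) had a fold of 6.48 and 7.39 in 4C-sorted cKO, 9.06 and 7.96 in 4C-sorted WT, 5.51 and 6.44 in cKIT+ cKO, and 3.79 and 4.66 in cKIT+ WT libraries, a log2 ratio of 0.75 on scaled folds. The 4C-sorted libraries were the higher ones, with no overlap. Acr, the acrosomal protease acrosin, had a fold of 5.81 and 6.40 in 4C-sorted cKO, 7.36 and 8.35 in 4C-sorted WT, 3.08 and 3.89 in cKIT+ cKO, and 3.91 and 5.18 in cKIT+ WT libraries, a log2 ratio of 0.95. Tekt3, a flagellar tektin, and Spata18 each had a log2 ratio of 0.64. The highest scaled folds of the list were not among them and belonged to Zpbp2, a zona pellucida binding protein (1.69), and Hook1, a microtubule-binding protein of the sperm manchette (1.67). Between genotypes, Acr alone of the list was counted, as lower in cKO than in WT cKIT+ cells (log2 ratio -0.88), beside 1.10% of all coding genes with a shared start.

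Spermatogonial genes had 0 of 16 shared starts higher in 4C-sorted cells and 2 lower, Id4 and Zbtb16, both genes of undifferentiated spermatogonia, against 4.15% and 4.17% of all coding genes with a shared start. Id4 had a fold of 4.15 and 4.19 in 4C-sorted cKO, 3.88 and 3.93 in 4C-sorted WT, 9.77 and 8.08 in cKIT+ cKO, and 6.42 and 9.58 in cKIT+ WT libraries, a log2 ratio of -0.91, with every cKIT+ library above every 4C-sorted one. Kit, which encodes the receptor used for the cKIT+ sort, had a fold of 4.55 and 5.57 in 4C-sorted cKO, 4.18 and 4.06 in 4C-sorted WT, 5.71 and 5.80 in cKIT+ cKO, and 5.49 and 6.71 in cKIT+ WT libraries, a log2 ratio of -0.24. It was not counted, so its promoter did not separate the sorts by this rule. Etv5, a factor of spermatogonial self-renewal, had the highest scaled fold (1.57). Among markers of somatic cells, Ctsl (Sertoli) was the only shared start with a scaled fold above 1, at 1.35; Cyp11a1, of steroid synthesis in Leydig cells, had 0.81 and Cd14, of monocytes, 0.69. The part of such cells in the libraries was not tested.

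Chromatin genes had few counted starts, as did all coding genes with a shared start (4.15% higher and 4.17% lower between sorts). Among 23 shared SWI/SNF starts, Actl6b, the neuronal actin-like subunit, was higher in 4C-sorted cells, with a fold of 11.6 and 11.8 in 4C-sorted cKO, 12.1 and 12.2 in 4C-sorted WT, 8.44 and 8.17 in cKIT+ cKO, and 3.59 and 6.13 in cKIT+ WT libraries and a log2 ratio of 1.07, and Bicra was lower (-0.64). Among 14 CTCF and cohesin starts, Esco2, a cohesin acetyltransferase gene, was lower (-0.88) and 0 were higher; the median log2 ratio of that list was -0.24, against -0.01 for all coding genes with a shared region. Of the 11 ISWI subunits 0 were counted between sorts, and Baz2a, which joins SMARCA5 in the NoRC complex, was lower in cKO than in WT cKIT+ cells on scaled folds (log2 ratio -0.62), beside 1.10% of all coding genes. Its deposited folds overlapped, at 2.60 and 2.43 in 4C-sorted cKO, 2.76 and 3.08 in 4C-sorted WT, 2.13 and 2.45 in cKIT+ cKO, and 2.75 and 2.26 in cKIT+ WT libraries, so this call depends on the scaling. It was not particular to the ISWI list, since 1 SWI/SNF, 1 spermatid and 1 Hox gene were also counted as lower in cKO cKIT+ cells. Over all the lists no start was counted between genotypes in 4C-sorted cells, beside 0.312% higher and 0.182% lower of all coding genes with a shared start. Those shares are small, so the absence of counts says little about the lists.

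RNA from the cKO single-cell samples was highest for genes with a shared region at the start. The counts were summed over 8098 and 14262 cells with 46937462 and 112649739 UMIs in replicates 1 and 2, with at least 1000 UMIs and 500 genes and at most 10% mitochondrial UMIs per cell. Coding genes with a shared region had a median of 17.7 CPM in replicate 1 and 15.4 CPM in replicate 2, and 90.2% and 89.7% reached 1 CPM. Genes with a region of 1 to 7 lists had 1.41 and 1.33 CPM (56.1% and 54.8%), and genes with no region 0.107 and 0.0710 CPM (26.1% and 24.4%). Over all coding genes the medians were 5.6 and 5.16 CPM. lncRNA genes with a shared region had medians of 3.89 and 3.63 CPM. Both samples are cKO and come from whole testis, which includes the sorted cells and others, so no genotype or sort is compared in RNA, and genes are not replicates.

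**Figure D5:**
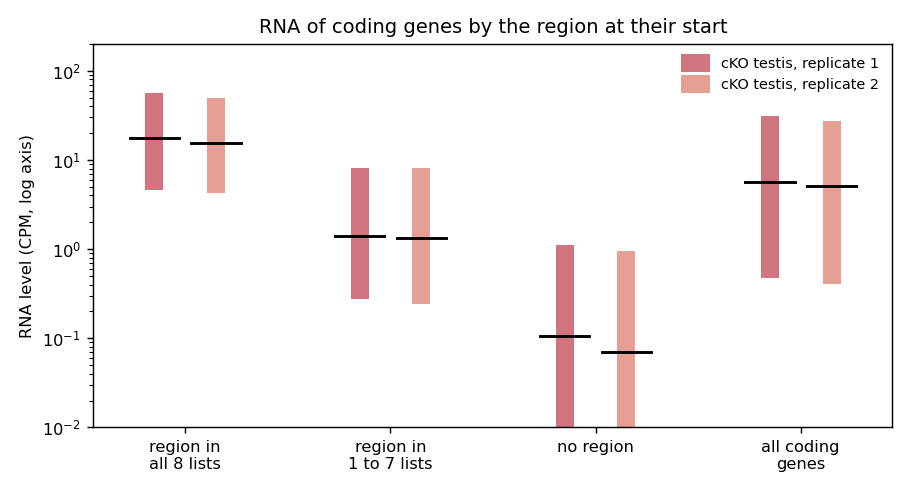
RNA level of autosomal coding genes in the 2 cKO single-cell samples, in CPM on a log axis, by whether the start lies in a shared region, a region of 1 to 7 lists or none, and for all coding genes (line, median; box, quartiles, cut at the lower edge of the axis for genes with no region). Medians are 17.7 and 15.4 CPM for shared regions, 1.41 and 1.33 CPM for 1 to 7 lists and 0.107 and 0.0710 CPM for none, in replicates 1 and 2.

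Within shared regions, RNA was not ordered by accessibility throughout. In the same 4 groups by scaled fold, median RNA in replicate 1 was 5.19, 13.7, 24.5 and 23.5 CPM from low to high, and 5.30, 12.5, 21.0 and 19.8 CPM in replicate 2, so the top 2 groups were close. Genes whose start was higher in 4C-sorted cells had a median of 5.84 and 5.76 CPM, genes whose start was lower 18.9 and 17.1 CPM, and the others 18.3 and 15.8 CPM. Prdm9 had 26.6 and 22.4 CPM, Psma8 224 and 139.8 CPM, and Spaca1 283.5 and 354 CPM. Actl6b, whose fold was higher in the 4C-sorted than in the cKIT+ libraries, had 1.04 and 0.808 CPM.

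Promoters with a shared region were rich in CpG. Of 20085 RefSeq promoters of coding genes, 10809 overlapped a shared region, and a gene can have more than 1 promoter. Over these, the median G+C share was 62.7% and the CpG observed over expected ratio 0.801. The 3585 promoters with a region of 1 to 7 lists had 54.7% and 0.360, the 5691 with none 45% and 0.172, and all 20085 promoters 57% and 0.586. A GC box (GGGCGG) stood in 70.3% of shared-region promoters, against 47.0% of all promoters, and an ETS motif (CCGGAAGT) in 9.32%, against 5.28%. An NRF1 motif (GCGCATGC) stood in 6.12% against 3.55%, a YY1 motif (AAGATGGCG) in 3.26% against 1.83%, a CRE (TGACGTCA) in 3.54% against 2.30% and an E-box (CACGTG) in 11.1% against 7.89%. A CCAAT box (CCAAT) stood in 38.8% against 38.1%. Both strands were searched, the motifs were counted separately, and a match is a description, not a site.

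Promoters that differed between sorts differed in how often they held a CCAAT box. It stood in 28.6% of the 409 promoters overlapping a shared region that was higher in 4C-sorted cells. Of the 466 overlapping a lower one, 53.9% held it. The YY1 motif stood in 0.978% of the higher and 3.65% of the lower promoters, and the GC box in 63.1% of the higher and 71.7% of the lower ones. The ETS motif stood in 5.38% of the higher and 6.22% of the lower ones. The NRF1 motif, in 5.62% of the higher and 3.22% of the lower, the E-box, in 13.9% and 9.23%, and the CRE, in 2.69% and 2.36%, were the more frequent in the higher promoters. Over all 10809 promoters with a shared region the shares were 38.8% for the CCAAT box, 3.26% for YY1 and 70.3% for the GC box. They were 9.32% for ETS, 6.12% for NRF1, 11.1% for the E-box and 3.54% for the CRE. ETS, NRF1 and CRE thus lay below that share in both kinds, and the rarer motifs rest on few promoters. Median G+C was 63.7% in the higher and 61.5% in the lower promoters. The Serp2 promoter printed above, with no CCAAT box, is of the higher kind, and the Atp5b promoter, with 5, of the lower kind. These shares are descriptions over promoters, and no test was made of them.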

How the data were processed

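For ATAC-seq, the submitters' processing notes name cutadapt, Bowtie2, MACS2 and the mm10 build, without versions or settings for these tools. The deposited lists, 1 for each library, give every peak a fold enrichment (a ratio), a −log10 p, a −log10 q and a score, which are the authors' values. The single-cell matrices hold the authors' deposited UMI counts, made with Cell Ranger 7.1.0 and 9.0.1 per the file headers. Seurat 4.1.0 is named in the submitters' processing notes without a role.

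Regions were merged with numpy 2.4.6 and pandas 2.3.3 in python 3.11.15. The fold of a region is its highest peak fold, scaled within a library on the regions compared: the shared regions between sorts, and every region with a peak in the 4 libraries of that sort between genotypes. The counting rule between sorts was checked on simulated data, and the permutation tests on made-up values. The genotype counts, of 2 against 2 libraries, were not checked in this way. Exact permutation tests over libraries were two-sided (scipy 1.17.1; figures by matplotlib 3.10.9). Gene positions and promoters came from RefSeq tables for GRCm38.p6; 7325 of 33073 autosomal genes had no strand there and were matched by either end. RNA is CPM of counts summed per sample over kept cells, without removal of doublets; 19946 of 20665 coding genes (96.5%) had an RNA row. Peak lists carry no depth, so no interval is given for their shares.

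Regions were named by rank of scaled fold, of the ratio in each comparison among counted regions, of width and of genes per region, and at the edges of the rule; list genes were taken by scaled fold. Some items that these rules name are not reported here. The members, the lists and the tests were chosen with earlier results of these data known.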

Additional observations from a re-analysis of the deposited data

Results flagged for a closer look

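Of the 17717 shared regions, 2 were counted in opposite directions in the 2 sorts. On scaled folds both cKO libraries lay above both WT libraries in 4C-sorted cells and below them in cKIT+ cells. This difference between sorts was not tested. At the start of Gm5592 (chr7:41283951-41284388) the fold was 8.02 and 6.30 in 4C-sorted cKO, 4.98 and 4.88 in 4C-sorted WT, 3.54 and 3.86 in cKIT+ cKO, and 4.47 and 3.46 in cKIT+ WT libraries. The log2 ratio of cKO to WT was 0.61 in 4C-sorted and -0.59 in cKIT+ cells, a difference of 1.2. The cKIT+ genotypes overlapped on deposited fold.

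At chr14:19610561-19611067, 7974 bp from Gm5458, the fold was 6.25 and 5.64 in 4C-sorted cKO, 4.35 and 3.39 in 4C-sorted WT, 4.43 and 5.15 in cKIT+ cKO, and 5.32 and 5.72 in cKIT+ WT libraries. The log2 ratio was 0.71 in 4C-sorted and -0.71 in cKIT+ cells, a difference of 1.41. In cKIT+ cells all shared regions had a median log2 ratio of -0.14 on this scaling.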

How the results depend on the processing

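Leaving out each library in turn gave 17746 to 21052 shared regions, with 58.4% to 63.9% at gene starts. Without cKIT+ WT replicate 1 the gene-start log2 ratio difference turned to -0.0176 between sorts, with up to 0.0668 without other libraries, and its genotype difference between sorts ranged from -0.0482 to 0.0160. The covered length ranged from -43.7 to 45.2 bp between sorts and from -228 to 2 bp for the genotype difference between sorts. Counts ranged over 1082 to 1897 higher and 1138 to 1703 lower in 4C-sorted than in cKIT+ cells, 127 to 294 higher and 75 to 236 lower in cKO than in WT 4C-sorted cells, and 52 to 422 higher and 159 to 1468 lower in cKIT+ cells.

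Peaks with −log10 q of at least 5 left 8091 shared regions, 84.6% at starts, with log2 ratio differences of -0.0346 between sorts, 0.00978 for cKO minus WT in 4C-sorted cells and 0.0560 between sorts in the genotype difference. Higher and lower counts were then 188 and 275 between sorts, 13 and 9 by genotype in 4C-sorted cells, and 9 and 54 in cKIT+ cells. With lists of equal length, 73.4% lay at starts, the genotype difference between sorts was 0.0430, and counts were 456 and 758, 88 and 28, and 39 and 90. A ratio of at least 2 gave 169 and 235, 2 and 1, and 1 and 27. Folds as deposited gave 630 and 1458, 64 and 159, and 2796 and 22. Peaks covering 50% of the region in each list left 6927. Starts within 2000 bp and 0 bp gave 68.4% and 61.6%. With 10 CPM, 62.3% and 59.4% of genes were detected in replicates 1 and 2.

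Chosen after seeing the data, quantile scaling gave 115 and 143 in cKIT+ cells, scaling on shared regions alone 129 and 218, and either annotated end for every gene 61.1% at starts and 0.00254 for the genotype difference between sorts. Same-numbered libraries did not deviate together (correlations of -0.0161 to 0.0664). With the replicate number as a block, the counts were 1187 and 1244, 127 and 74, and 52 and 400. The genotype difference over both sorts in the log2 ratio then had an exact permutation p = 0.125, the smallest that swaps within same-numbered pairs allow. Of the other values, 117 without a library and 70 under other settings kept their direction and their side of 0.05 in the exact permutation test or, where no test was made, stayed within 1.5 times a count or the 95% interval of a share. Most of these tests could not reach 0.05, so this says little of their size: with lists of equal length the gene-start log2 ratio difference between sorts was 0.171 (exact permutation p = 0.0571), and without a library that of cKO minus WT ranged from -0.108 to -0.0636 in 4C-sorted cells, -0.0954 to -0.0301 in cKIT+ cells and -0.0939 to -0.0542 over both, and the covered length from 0.5 to 35, 16 to 245 and 17 to 131 bp. Where values moved, the cause was not tested. A p that misses 0.05 with so few libraries does not show that groups were alike, and depth, which is unknown, may limit which regions are called in every list.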

Other observations

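RNA and shared regions did not always go together. Of 11398 coding genes with a shared region at the start and an RNA row, 41 (0.360%) had no UMI in either cKO sample. Hoxc13, a homeobox gene of hair and nails with a scaled fold of 1.51, had 0.0213 and 0.0355 CPM. Scgb1a1, a secretoglobin of airway club cells with a scaled fold of 1.3, had 0.511 and 0.559 CPM. In the other direction, 66 of 4518 coding genes (1.46%) with no region at the start had at least 100 CPM in both samples. They were led by Prm2 (5026 and 6677 CPM) and Tnp2 (4633 and 5559 CPM), which package DNA in elongating spermatids, cells neither sort selected for. Npm1 (742 and 637 CPM) and Rpl17 (648 and 593 CPM) were among them too; whether their annotated start is the one in use was not tested.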
